A study of Mus musculus with 6 samples.

Results

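Notch signalling was examined across pancreata of mouse embryos at e16.5 through 34 genes: the ligands, receptors, fringe enzymes, nuclear complex, Hes and Hey targets, Deltex genes, Numb genes and Mib1. All 34 symbols were found among the 54735 in each count table, and 31 passed the filter on low counts. The members were picked by name and role, though with earlier results of these data known. Whole pancreas was taken from 6 embryonic samples of a mixed C57Bl6 and 129SV background. All carried Neurog3:cre, in which the promoter of Neurog3, the master gene of endocrine progenitors, drives the recombinase. The 3 control samples had that driver alone. The 3 samples called RARdn here had it together with RARdnfl/fl, by its usual reading a conditional dominant-negative retinoic acid receptor, which the labels do not spell out. The labels do not say whether embryos were pooled or shared a litter, so a p-value here tests only against the spread among these 6 samples. The driver acts in endocrine progenitors, while the RNA came from every cell of the organ.

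Notch receptors sit in the membrane of one cell and bind Delta-like or Jagged ligands on a neighbouring cell. Binding lets proteases release the receptor's intracellular domain, which enters the nucleus, joins the DNA-binding protein RBPJ and a Mastermind co-activator, and turns on repressors of the Hes and Hey families. In the embryonic pancreas the pathway is best known for lateral inhibition: a cell that makes Neurog3 also makes Dll1, and Hes1 in its neighbours holds Neurog3 down. Blood vessels use the same pathway through Dll4, Notch1 and Notch4, and the mural cells around them through Jag1, Notch3 and Heyl.

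Between 35256531 and 52015498 counts fell in genes per library, and levels are given as counts per 1000000 counts in genes (CPM) after TMM scaling of the libraries. Between 31 and 34 members had at least 1 count in a library, and their summed level was 1243 to 1316 CPM in controls and 1292 to 1337 CPM in RARdn libraries. Pancreatic markers were present in all 6 libraries, with the acinar enzyme gene Cpa1 at 4656 to 20427 CPM and Neurog3 itself at 22.3 to 46.6 CPM. The summed acinar list was far lower in RARdn 1 (58683 CPM) than in the other libraries (173296 to 307371 CPM). Xist, made from the inactive X chromosome, reached 1157 CPM in control 1 and 1117 CPM in control 3 but at most 0.312 CPM elsewhere, so sex differed between the groups as well as genotype. Summed markers of mural and smooth muscle cells, mesenchyme, neural crest and liver were higher in every RARdn library than in any control, and those of intestine were lower. The liver sum was at 1505, 600 and 449 CPM in RARdn 1, 2 and 3, against 382 to 411 CPM in controls. For neural crest the sums were 148, 103 and 107 CPM, against 91.7 to 100.2 CPM, so RARdn 1 stood out in both lists.

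Which Notch genes differed where the RARdn allele was present was asked by setting the 3 RARdn libraries against the 3 controls. Dtx1, a ubiquitin ligase gene of the Deltex family, was 2.05-fold higher and was the 1 member that passed. Jag1, Dll3, Notch3, Maml1, Maml2, Mfng, Heyl and Hey2 had higher levels in every RARdn library than in any control, and Dll4, Hes6 and Mib1 lower ones, without passing. Of the 31 members tested by edgeR's quasi-likelihood test, 1 was called higher and 0 lower at an adjusted p under 0.05. Over all 19070 genes tested, 1.37% were called higher and 2.65% lower, so the share of members called, 1 of 31, was near that background. DESeq2 called 3 members higher (Dtx1, Hey2 and Heyl) and 0 lower, where it called 5.11% of all genes higher. At an unadjusted p under 0.05, edgeR had 8 members higher and 2 lower, where it had 12% and 10.2% of all genes. The groups did not overlap for 9 members that were higher and 3 that were lower in RARdn, where 13.9% and 13.7% of all genes had such a pattern. The members' median log2 fold change was 0.080, against 0.00051 over all genes tested, and 18 of 31 were above 0, where 50% of all genes were. Without RARdn 3, edgeR called 6 members higher (Dtx1, Dtx3, Hey2, Heyl, Notch3 and Numbl) and 1 lower (Mib1), against 6.98% and 7.84% of all genes. In whole-tissue RNA, fewer cells of a type and less RNA per cell cannot be told apart.

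**Figure D1:**
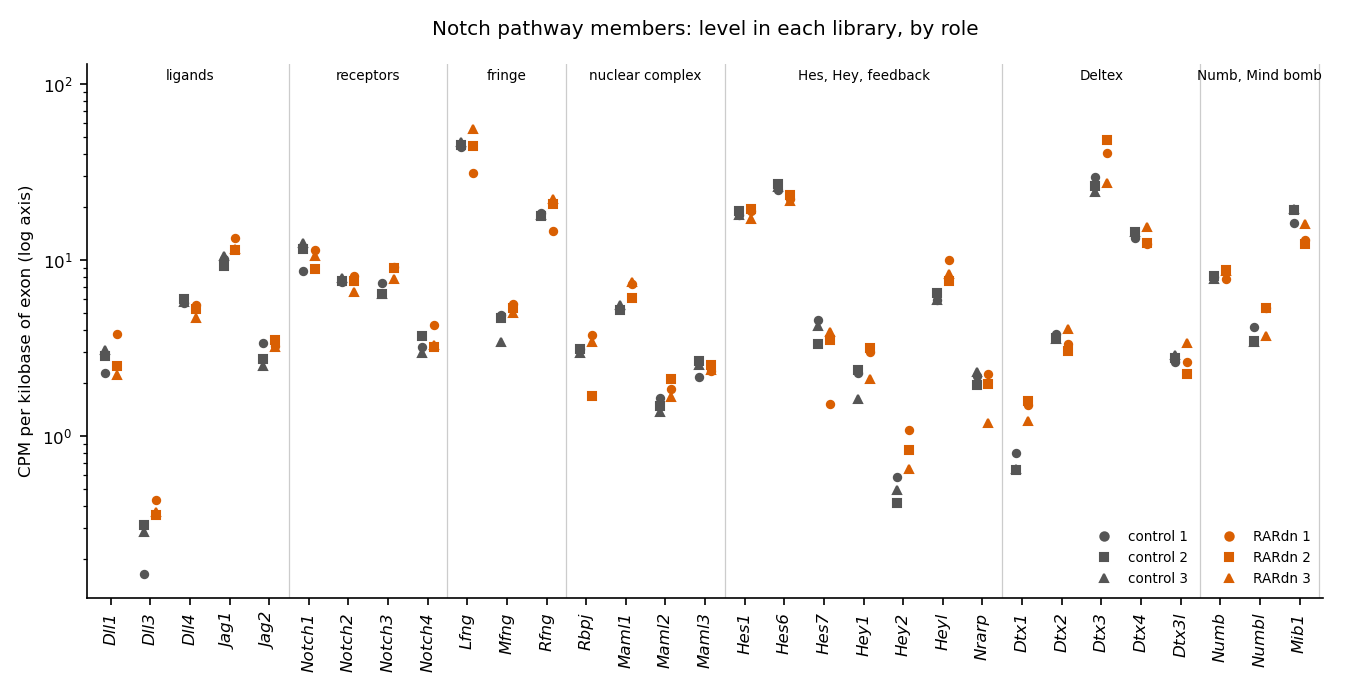
Level of each of the 31 tested members in every library, in CPM per kilobase of exon on a log axis, grouped by role. Grey points are the 3 controls and orange points the 3 RARdn libraries, with a marker shape for each replicate number. Lfng is the highest member and Dll3 the lowest, and Dtx1 shows the clearest separation of the groups.

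**Figure D2:**
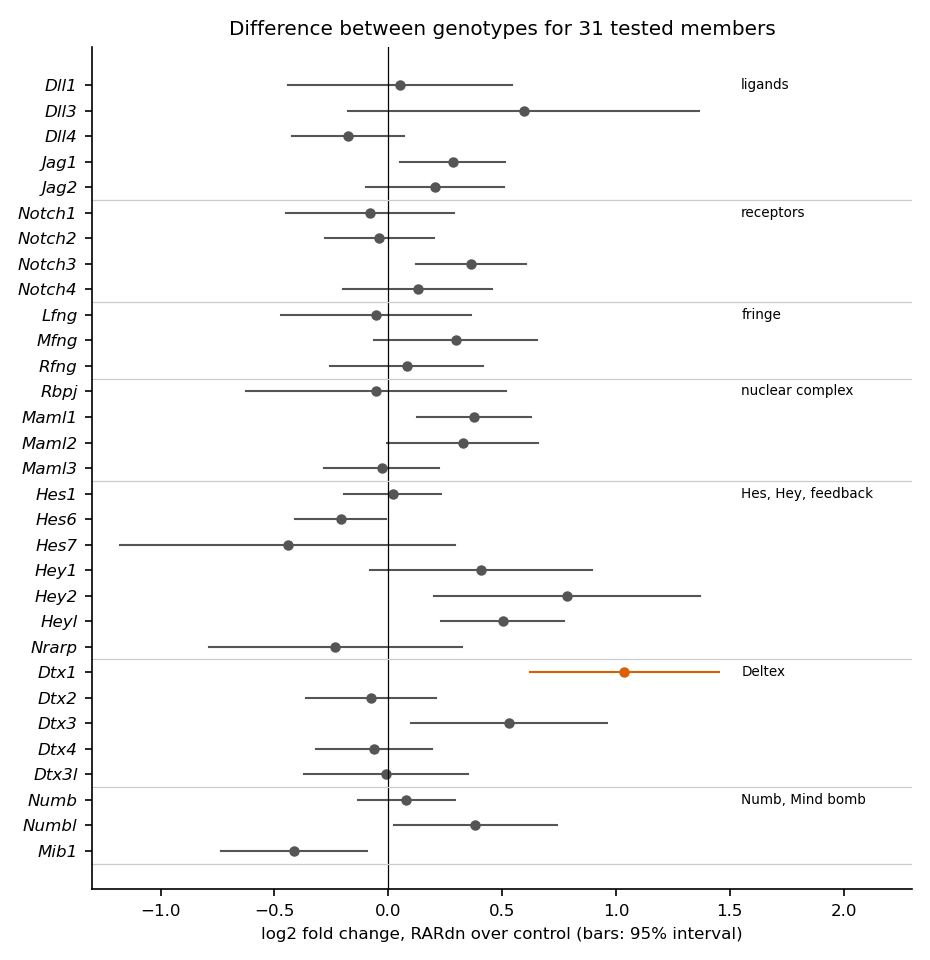
Log2 fold change of RARdn over control for the 31 tested members, with 95% intervals from the edgeR fit, in the order of their roles. Dtx1, in orange, is the member that passed at an adjusted p under 0.05, and the intervals of Jag1, Notch3, Maml1, Hes6, Hey2, Heyl, Dtx3, Numbl and Mib1 also leave out 0.

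Ligands were present at very unequal levels. Per kilobase of exon, Jag1 was the highest (9.92 CPM per kilobase in controls), followed by Dll4 (5.81), Jag2 (2.87), Dll1 (2.73) and Dll3 (0.254). Jag2 and Dll1 did not differ beyond their spread. None of the 5 passed edgeR (1 was higher at an unadjusted p under 0.05) or DESeq2. Jag1, a ligand of duct and vessel wall cells (chromosome 2, 137081456 to 137116644, GRCm38), was at 58.6, 53.9 and 61.1 CPM in control 1, 2 and 3. In RARdn 1, 2 and 3 it was at 77.4, 66.2 and 67.4 CPM. All RARdn libraries lay above all controls, by a log2 fold change of 0.28 (SE 0.102, adjusted p = 0.151).

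Dll1, the ligand made by endocrine progenitors, was at 9.57, 12 and 13 CPM in controls. RARdn 1, 2 and 3 had 15.9, 10.5 and 9.37 CPM. The groups overlapped, with the highest value in RARdn 1, and the 95% interval of the log2 fold change ran from -0.44 to 0.55 (adjusted p = 0.912). Dll4, the ligand of sprouting and arterial endothelium, was at 22, 22.9 and 22.2 CPM in controls. It was at 21.2, 20.2 and 18 CPM in RARdn libraries, all below the controls but within a small range (log2 -0.18, SE 0.107, adjusted p = 0.371). Summed endothelial markers overlapped between the groups, at 600 to 728 and 662 to 718 CPM. Dll3, an atypical ligand that acts inside the cell and is known from somite formation, stayed near 1 CPM in every library (0.469 to 1.23 CPM). Jag2 was at 20 ± 3.18 CPM in controls and 23.0 ± 1.22 CPM in RARdn (SD, n = 3 each).

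Shares within a role do not depend on how libraries are scaled. Of the summed ligand level per kilobase, Jag1 made up 43.8% to 47.4% in controls and 49.5% to 52.6% in RARdn libraries. Dll4 made up 26.1% to 28.2% and 21% to 22.9%. Exons of Dll4 overlap Gm14207 on the other strand (2.15 to 4.92 CPM), and those of Dll1 overlap A930024N18Rik (0.460 to 1.24 CPM). The strand setting is not known, so counts of both ligands are uncertain. The Jag1 share was higher and the Dll4 share lower in all 3 RARdn libraries, while the share of Dll1 overlapped (10.5% to 13.9% and 10.1% to 14.4%). Shares within a role are parts of the same total, so the Jag1 and Dll4 differences are not separate results.

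The receptor genes showed 1 member apart from the other 3. Notch3, the receptor of mural cells (chromosome 17, 32120820 to 32166852), was at 59.6, 51.5 and 51.7 CPM in control 1, 2 and 3. It was at 73.8, 72.6 and 63.1 CPM in RARdn 1, 2 and 3, with no overlap. The log2 fold change was 0.36 (SE 0.106, 95% interval 0.12 to 0.61) and did not pass (adjusted p = 0.0926). Notch1, the most abundant receptor by length and the main one of endothelium and many epithelia, was at 122, 164 and 176 CPM in controls. In RARdn libraries it was at 162, 126 and 150 CPM, and the groups overlapped widely (adjusted p = 0.813). Notch2, a receptor of the pancreatic epithelium and mesenchyme, was at 82.2 ± 2.31 and 79.9 ± 8.56 CPM (95% interval of the log2 fold change -0.28 to 0.20). Notch2 per 1000 CPM of mesenchymal markers was at 12.4 ± 2.03 and 8.03 ± 1.08 CPM, without overlap. Those markers alone were higher in every RARdn library while Notch2 overlapped, so the ratio is no separate sign of lower Notch2. Notch4, largely an endothelial receptor, was at 26.4 ± 3.04 and 28.9 ± 4.87 CPM. Notch1 and Notch3 exons overlap genes on the opposite strand, and counts of such pairs are uncertain because the strand setting is not known. The overlapping partner of Notch3, Gm17276, was at most 0.197 CPM.

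Summed mural and mesenchymal markers were, like Notch3 and Jag1, higher in every RARdn library than in any control. Within the RARdn group the order differed. The mural sum was highest in RARdn 2 (674 CPM), where Jag1 was lowest of the group (66.2 CPM). All 12 mural and smooth muscle markers had a log2 fold change above 0, and 3 were called higher: Rgs5, Acta2 and Cnn1. Their summed level was 334 to 439 CPM in controls and 464 to 674 CPM in RARdn libraries. Tagln, a defining smooth muscle marker, was near 0 in all libraries (0.254 to 0.710 CPM), and its exons overlap Pcsk7. All 10 mesenchymal markers were above 0 and 1, Lum, was called higher; they summed to 5760 to 7828 and 9444 to 10677 CPM, also without overlap. Per 1000 CPM of the mural markers, Notch3 stood at 148 ± 10.5 CPM in controls and 126 ± 15.4 CPM in RARdn libraries (SD, n = 3 each), and the groups overlapped. Jag1 stood at 159 ± 23.9 and 128 ± 25.6 CPM on the same footing. What part the stromal cells had in the Notch3, Jag1 and Heyl levels was not tested.

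**Figure D3:**
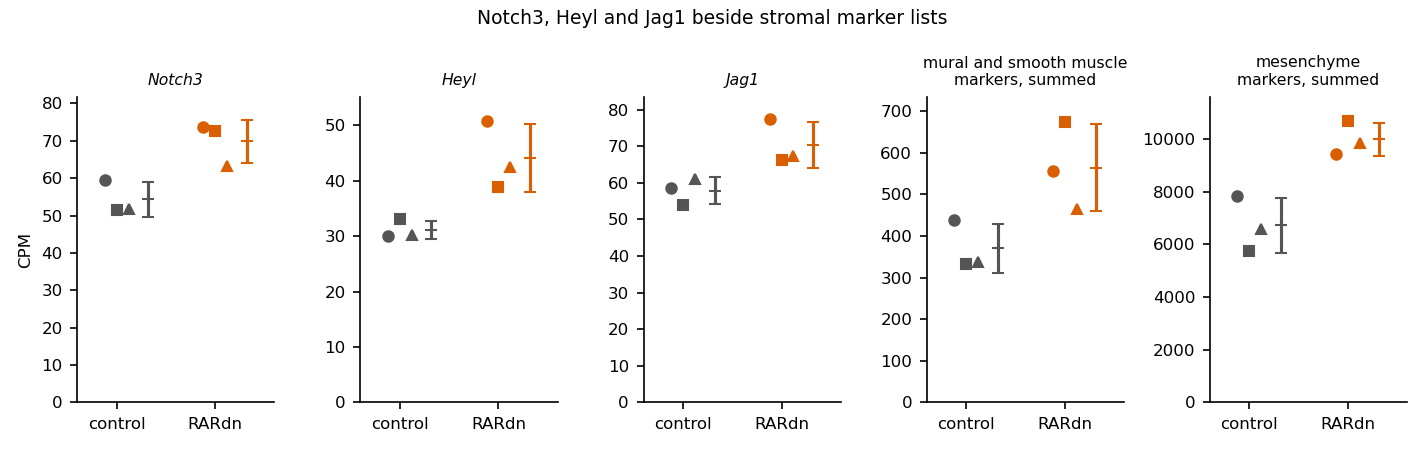
CPM of Notch3, Heyl and Jag1 and summed CPM of the mural and mesenchymal marker lists, by group. Points are libraries, with circle, square and triangle for replicates 1, 2 and 3, and the bar beside them is the mean with its SD. In all 5 panels every RARdn library lies above every control.

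Fringe enzymes add a sugar to the receptors and so tune which ligand they answer. Lfng was the most abundant of all 34 members by length, at 45.1 CPM per kilobase in controls. It was at 110, 112 and 117 CPM in controls and at 78.2, 111 and 138 CPM in RARdn 1, 2 and 3. The RARdn values fell on both sides of the narrow control range (adjusted p = 0.895). Rfng had the same order, with 36.4, 51.5 and 54.8 CPM in RARdn 1, 2 and 3 around controls of 44.9 ± 1.09 CPM. In both genes RARdn 1, the library with the lowest acinar level, was lowest, and the summed acinar list had the same order across the 3 RARdn libraries. Its part in these values was not tested. Mfng, which endocrine progenitors express, was at 13.8, 13.2 and 9.67 CPM in controls against 15.9, 15.1 and 14.1 CPM in the RARdn libraries (log2 0.30, adjusted p = 0.308). Per 1000 CPM of endocrine progenitor markers it was at 36.6 ± 7.95 and 43.2 ± 3.68 CPM, with overlap.

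In the nuclear complex, Maml1, a Mastermind co-activator (chromosome 11, 50255634 to 50292311), was at 29.2, 28.5 and 30.7 CPM in controls. It was at 40.3, 33.4 and 41.3 CPM in RARdn 1, 2 and 3, all above the controls (log2 0.38, SE 0.110, adjusted p = 0.0926). Maml2 was also higher in each RARdn library, at 9.85 ± 0.863 and 12.3 ± 1.52 CPM (adjusted p = 0.230). Maml3 overlapped, at 25.7 ± 2.72 and 25.2 ± 1.0 CPM. None of the 3 passed edgeR (at an unadjusted p under 0.05, 1 of 3 was higher) or DESeq2.

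Rbpj, the DNA-binding core of the pathway (chromosome 5, 53466152 to 53657362), stood apart in 1 library. It was at 39.4, 39.6 and 37.6 CPM in controls, 47.7 CPM in RARdn 1 and 43.5 CPM in RARdn 3, but 21.4 CPM in RARdn 2. The log2 fold change was -0.05 (SE 0.251, adjusted p = 0.925) with all libraries and 0.23 without RARdn 2 (edgeR, adjusted p = 0.263; 0.263 to 0.970 over 15 alternatives). Rbpj-ps3, a processed pseudogene of Rbpj (chromosome 6, 46529354 to 46530794), had 16, 18 and 28 counts in controls, 58 in RARdn 1 and 24 in RARdn 3, against 416 in RARdn 2. It made up 27.7% of the counts of both genes in RARdn 2 (exact 95% binomial interval 25.4% to 30.0%, counting error only). In the other 5 libraries it made up 1.0% to 2.04%. Reads of such copies can be split or lost in counting, so Rbpj is uncertain. Counted together, the pair was at 29.6 CPM in RARdn 2 and 38.3 to 48.7 CPM in the other libraries, so the sum was still lowest there. That sum had a log2 fold change of 0.053 (adjusted p = 0.885), a setting chosen after seeing the counts.

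**Figure D4:**
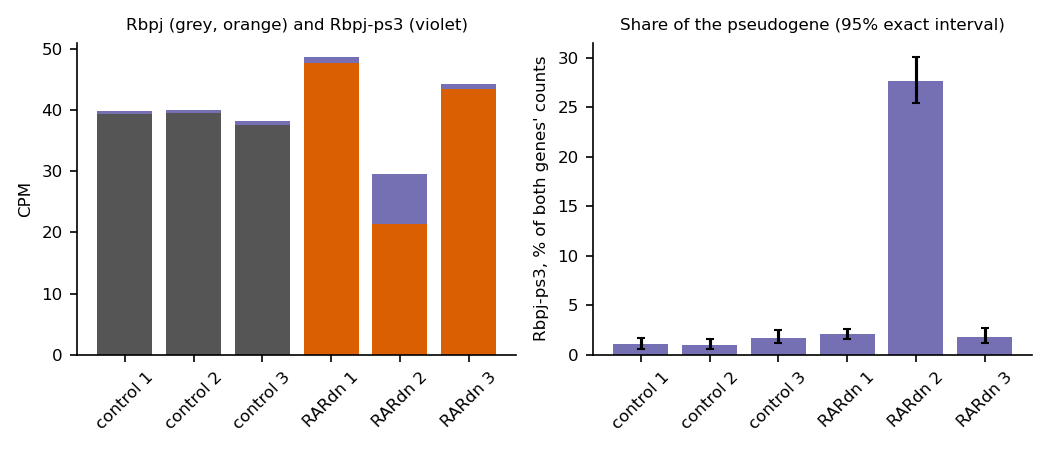
Left, CPM of Rbpj (grey for controls, orange for RARdn) with that of its pseudogene Rbpj-ps3 stacked in violet, for each library. Right, the pseudogene's share of the counts of both genes in percent with exact 95% intervals, 27.7% in RARdn 2 and at most 2.04% in the other libraries.

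Hes and Hey genes encode the repressors through which Notch acts. Hes6 and Hes1 led by length, at 25.8 and 18.2 CPM per kilobase in controls. Hes1, the classical target in pancreatic progenitors (chromosome 16, 30064384 to 30067796), was at 36.3, 38.5 and 36.6 CPM in controls against 38.4, 39.8 and 34.9 CPM in RARdn libraries. It was among the steadiest members, and the 95% interval of its log2 fold change was -0.19 to 0.23 (adjusted p = 0.921). Hes6, which opposes Hes1 and is made by endocrine progenitors (chromosome 1, 91411483 to 91414038), was at 44.8, 48.5 and 46.5 CPM in controls. It was at 40.0, 41.9 and 38.9 CPM in RARdn 1, 2 and 3, each below every control (log2 -0.21, SE 0.0873, adjusted p = 0.203). Per 1000 CPM of endocrine progenitor markers, Hes6 was at 139 ± 6.86 and 116 ± 14.4 CPM and the groups overlapped.

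The 3 Hey genes were all higher on average in RARdn pancreas. Heyl, a target in vascular smooth muscle and mesenchyme (chromosome 4, 123233556 to 123249875), was at 30.0, 33.0 and 30.2 CPM in control 1, 2 and 3. It was at 50.8, 38.9 and 42.5 CPM in RARdn 1, 2 and 3, without overlap. Its log2 fold change of 0.50 (SE 0.119, 95% interval 0.23 to 0.77) came closest to the threshold after Dtx1, at adjusted p = 0.0539. Heyl was called in 4 of 15 alternatives (adjusted p from 0.0136 to 0.504), among them DESeq2 (0.0141) and edgeR without RARdn 3 (0.0314). Per 1000 CPM of mural markers it was at 85.6 ± 15.6 CPM in controls and 80.2 ± 19.5 CPM in RARdn libraries, with overlap. Hey2, a target in arterial endothelium and smooth muscle (chromosome 10, 30832359 to 30842801), was at 2.69, 1.91 and 2.24 CPM in controls against 4.97, 3.80 and 2.96 CPM in RARdn libraries. The groups did not overlap (log2 0.79, SE 0.256, adjusted p = 0.122). DESeq2 called it (adjusted p = 0.0457), as did edgeR without RARdn 3 (0.0358; 0.0358 to 0.437 over 15 alternatives). Per 1000 CPM of endothelial markers Hey2 was at 3.05 to 3.74 and 4.25 to 7.51 CPM, again without overlap. It overlapped per 1000 CPM of mural markers, at 5.73 to 6.65 and 5.65 to 8.93 CPM. Hey1 overlapped, at 6.81 ± 1.34 and 9.0 ± 1.86 CPM (adjusted p = 0.304).

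The remaining targets were low or overlapping. Nrarp, a feedback inhibitor that binds the Notch complex, was at 5.51 ± 0.479 and 4.66 ± 1.44 CPM. Hes7, the clock gene of somite formation, was at 7.27 ± 1.12 CPM in controls and at 2.75, 6.33 and 7.07 CPM in RARdn 1, 2 and 3. The 1 low value of Hes7 came from RARdn 1, and its exons overlap 9130213A22Rik on the other strand (1.33 to 2.60 CPM). Hes2, Hes3 and Hes5 were not tested. Hes2 had 1 count in control 3 and in RARdn 2 and 0 elsewhere. Hes3 had 1 and 2 counts in control 2 and 3 and 0 elsewhere. Hes5 had 2, 1 and 6 counts in controls and 4, 2 and 0 in RARdn libraries. A count of 0 allows up to 3 counts, which is 0.0512 to 0.0987 CPM in these libraries, so a difference between groups smaller than about that level was not detectable at this depth.

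RBPJ recognises DNA with the core TGGGAA, most often as GTGGGAA. RefSeq promoter sequences (GRCm38.p6) were at hand for 25 members with 31 start sites, and bases 250 to 51 before each start site were searched on both strands. No sequence was at hand for Mfng, Hes1, Hes2, Hes3, Hey1, Heyl, Dtx3, Dtx4 or Mib1, so the promoters of these members were not searched. GTGGGAA, or TTCCCAC on the other strand, stood in 4 of 31 member windows (12.9%) and 4.35% of all 32851 promoters. The 4 windows were those of Hes5, Hes7, Hey2 and Lfng. The shorter TGGGAA, which GTGGGAA contains, stood in 8 of 31 member windows (25.8%, from 7 members) and 17.9% of all promoters. The retinoic acid receptor half-site AGGTCA stood in 4 of 31 member windows (12.9%), for Dll1, Dtx2, Hes6 and Numbl, and 11.4% of all promoters. AGGTCA repeated on the same strand with 5 bases between, the classical receptor element, stood in no member window and in 3 of all promoters. The windows of Hes5, Hey2 and Lfng are printed 5′ to 3′ on the gene's strand because their genes range from near 0 to the highest level seen here, with matches of either strand in capitals.
Hes5 (chr4:154960673-154960872, plus strand): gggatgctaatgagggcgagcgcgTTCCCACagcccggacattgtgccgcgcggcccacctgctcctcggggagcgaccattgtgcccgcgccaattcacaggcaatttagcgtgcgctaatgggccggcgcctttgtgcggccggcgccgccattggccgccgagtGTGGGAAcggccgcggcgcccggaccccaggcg
Hey2 (chr10:30842834-30843033, minus strand): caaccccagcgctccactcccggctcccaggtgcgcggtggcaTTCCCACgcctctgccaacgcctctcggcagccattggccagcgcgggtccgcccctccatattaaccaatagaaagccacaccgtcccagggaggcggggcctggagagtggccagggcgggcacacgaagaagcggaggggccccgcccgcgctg
Lfng (chr5:140607091-140607290, plus strand): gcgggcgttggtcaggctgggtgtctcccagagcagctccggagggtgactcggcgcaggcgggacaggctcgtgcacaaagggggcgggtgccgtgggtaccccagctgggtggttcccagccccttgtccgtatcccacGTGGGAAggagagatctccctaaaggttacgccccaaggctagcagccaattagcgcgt
Exons of the Hes5 gene, which begin after this window, overlap those of Gm20421 on the other strand. Hes5, with matches that begin 226 and 83 bases before its start site, had at most 6 counts in a library. Hey2, with a match 207 bases before, was at 1.91 to 4.97 CPM, and Lfng, with a match 109 bases before, at 78.2 to 138 CPM. A match describes letters in this window and not a bound site.

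Deltex genes encode ubiquitin ligases, of which Dtx1, Dtx2 and Dtx4 are known to bind the intracellular domain of Notch, and Dtx1 is itself a Notch target in lymphoid cells. Dtx1 (chromosome 5, 120680202 to 120711927) was at 4.20, 3.38 and 3.42 CPM in control 1, 2 and 3, from 148 to 161 counts. It was at 7.86, 8.26 and 6.41 CPM in RARdn 1, 2 and 3, from 195 to 460 counts. Every RARdn library was above every control, by 2.05-fold (log2 1.04, SE 0.182, 95% interval 0.62 to 1.45, adjusted p = 0.0212). The call was kept in 11 of 15 alternatives (adjusted p from 2.25e-05 to 0.231). It was lost with a term for Xist (0.231) and without control 2 (0.111), control 3 (0.0815) or RARdn 2 (0.0764), where the log2 fold change was 0.97 to 1.15. Dtx1 was also higher per 1000 CPM of endocrine progenitor markers (11.0 ± 2.31 and 21.7 ± 3.83 CPM) and of duct and trunk markers (4.27 ± 0.721 and 8.06 ± 1.97 CPM). Neither ratio overlapped between the groups, and neither summed marker list separated them. Of the lists that were higher in every RARdn library, Dtx1 was also higher without overlap per 1000 CPM of mural markers (9.56 to 10.1 and 12.3 to 14.1 CPM), mesenchymal markers (0.520 to 0.587 and 0.652 to 0.832 CPM) and neural crest markers (33.8 to 45.8 and 53.1 to 80.3 CPM). It overlapped per 1000 CPM of liver markers, at 8.34 to 10.2 CPM in controls and at 5.22, 13.8 and 14.3 CPM in RARdn 1, 2 and 3. What part these cell types had in the Dtx1 level was not tested. The RefSeq promoter window of Dtx1 held no TGGGAA and no AGGTCA. It held a match to CACNAG (N is any base), a further motif searched, that begins 107 bases before its start site. Such matches stood in 13 of 31 member windows (41.9%) and 31.1% of all promoters.

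Dtx1 was the least abundant member of its family by length (0.696 and 1.43 CPM per kilobase), and Dtx3 the most abundant (26.7 and 38.5). Dtx3 (chromosome 10, 127190378 to 127195728) was at 75.8, 67.4 and 62.6 CPM in controls. RARdn 1 and 2 had 105 and 123 CPM and RARdn 3 had 70.1 CPM. RARdn 3 lay inside the control range, so the groups overlapped (log2 0.53, SE 0.189, adjusted p = 0.148). Without RARdn 3 it was called higher (log2 0.73, adjusted p = 0.0140, and 0.0140 to 0.577 over 15 alternatives). Dtx4, an endocrine-enriched ligase gene, was at 73.1 ± 3.15 and 70.0 ± 9.14 CPM. Dtx2 was at 25.6 ± 0.947 and 24.3 ± 3.69 CPM and Dtx3l at 15.8 ± 0.759 and 15.7 ± 3.24 CPM, so both overlapped. Of the family's summed level per kilobase, Dtx1 made up 1.35% to 1.59% in controls and 2.34% to 2.47% in RARdn libraries. Dtx3l exons overlap Parp9.

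**Figure D5:**
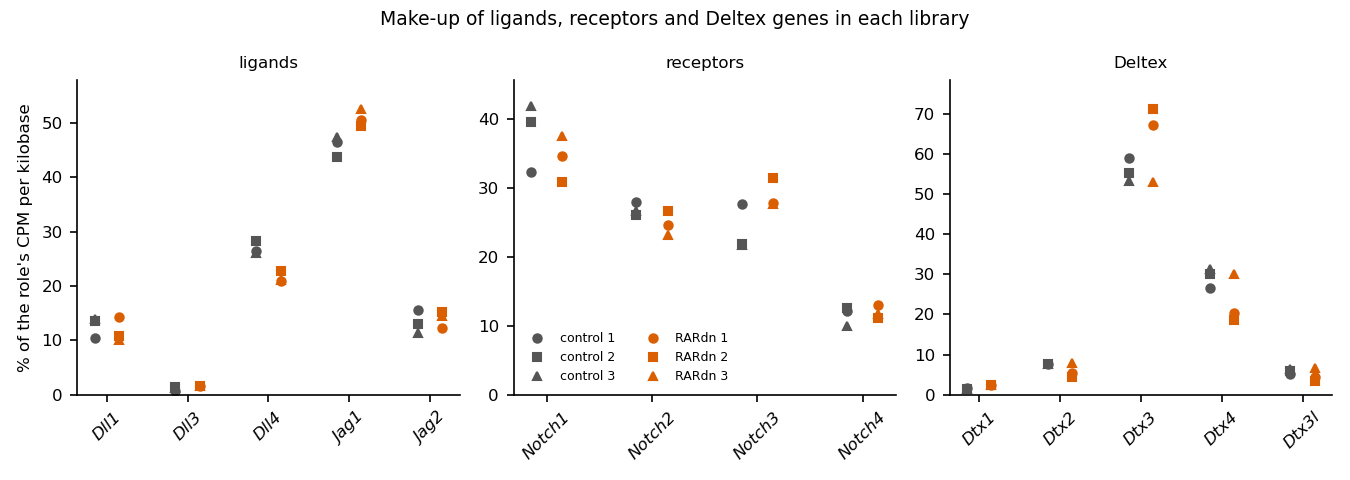
Share of each gene in the summed CPM per kilobase of the ligands, receptors and Deltex genes, in percent, for each library. Grey points are controls and orange points RARdn libraries. Dll4 lies lower and Jag1 higher in all RARdn libraries, receptor shares overlap, and the Dtx1 share is small but separates the groups.

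Numb and Numbl encode adaptors that lower Notch at the membrane, and Mib1 a ubiquitin ligase that sending cells need to make their ligands active. Mib1 was the most abundant of the 3 by length, at 176, 211 and 213 CPM in controls. It was at 142, 135 and 174 CPM in RARdn 1, 2 and 3, just below the lowest control in RARdn 3. Its log2 fold change of -0.41 (SE 0.141, 95% interval -0.73 to -0.09) did not pass (adjusted p = 0.134). Numbl (chromosome 7, 27258433 to 27282144) was at 35.9, 29.8 and 29.6 CPM in controls against 46.2, 46.1 and 31.9 CPM in RARdn libraries, with RARdn 3 again inside the control range (log2 0.38, adjusted p = 0.198). Without RARdn 3, edgeR called Mib1 lower (adjusted p = 0.0264, and 0.0264 to 0.497 over 15 alternatives). It then called Numbl higher (adjusted p = 0.0218, and 0.0218 to 0.556 over 15 alternatives). Numb was at 31.1 ± 0.699 and 32.8 ± 2.03 CPM (adjusted p = 0.662).

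Other genes of the pathway were read from a list of 56 entries, of which 55 matched a symbol and 54 were tested. Of these, 2 were called higher and 0 lower, against 1.37% and 2.65% of all genes, and their median log2 fold change was -0.0085. Both called genes belonged to the 8 tested non-canonical ligands and modulators, of which 7 were above 0. Cntn1, a neural adhesion protein that can bind Notch (chromosome 15, 92051165 to 92341967), was at 1.96, 1.47 and 1.32 CPM in controls. It was at 3.16, 4.12 and 3.72 CPM in RARdn libraries, without overlap (log2 1.21, SE 0.244, adjusted p = 0.0342). Mfap2, a microfibril protein of the matrix that can bind Jagged and Notch (chromosome 4, 141010418 to 141015984), was at 72.4, 55.3 and 56.2 CPM in controls. It was at 101, 101 and 81.5 CPM in RARdn libraries (log2 0.62, SE 0.139, adjusted p = 0.0458), where the mesenchymal markers were higher too. For Cntn1 the call was lost on leaving out any single control (adjusted p = 0.0526, 0.155 and 0.128 for control 1, 2 and 3) or RARdn 2 (0.0984), with a maximum of 0.312 over 15 alternatives. For Mfap2 it was lost on leaving out control 2 (0.207), control 3 (0.169), RARdn 1 (0.0572) or RARdn 2 (0.120), with a maximum of 0.264. The neural crest list, with Schwann cell markers, was at 91.7 to 100.2 CPM in controls and 103 to 148 CPM in RARdn libraries. The part of either marker list in Cntn1 and Mfap2 was not tested. Dlk1, a non-canonical ligand made by fetal pancreas and mesenchyme, was at 1031 ± 78.9 and 1377 ± 26.9 CPM, which edgeR did not call (adjusted p = 0.171) and DESeq2 did (0.00537). Ybx1, a nucleic acid-binding protein and the most abundant of the class by length, was at 764 ± 27.7 and 742 ± 66.7 CPM.

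No gene of the other 5 classes was called, where edgeR had 6 of their 46 tested genes higher and 2 lower at an unadjusted p under 0.05 (12% and 10.2% of all genes) and DESeq2 called 0. Without RARdn 3, edgeR called Tle4 and Mib2 higher (adjusted p = 0.0196 and 0.0453) and Psen2 and Epn1 lower (0.0271 and 0.0413), where 6.98% and 7.84% of all genes were called. Of the 10 cleavage genes, Adam10, the protease that opens activated receptors, was at 254 ± 40.0 and 204 ± 43.5 CPM. Furin, which cuts receptors on their way to the membrane, was at 84.2 ± 4.26 and 102 ± 10.9 CPM (adjusted p = 0.170). Of the 6 glycosylation genes, Poglut1 was at 29.3 ± 1.02 and 30.4 ± 3.10 CPM and Eogt at 22.6 ± 1.08 and 24.7 ± 3.30 CPM, and none of the 6 separated the groups. Of the 9 ubiquitin and trafficking genes, Epn1, an endocytic adaptor, was at 206 ± 2.66 and 177 ± 33.7 CPM. Aak1, a kinase of endocytosis, was at 95.1 ± 2.76 and 78.9 ± 2.40 CPM (log2 -0.27, adjusted p = 0.125). Of the 15 co-repressor genes, Aes was at 697 ± 12.6 CPM in controls and at 433, 555 and 756 CPM in RARdn 1, 2 and 3. Tle1, a Groucho co-repressor that Hes proteins recruit, was at 51.9 ± 3.11 and 62.1 ± 6.21 CPM (adjusted p = 0.189).

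The RBPJ paralog Rbpjl, which takes the place of RBPJ in acinar cells, was far more abundant than Rbpj in this organ. It was at 1441, 1671 and 1677 CPM in controls against 1174, 1496 and 1298 CPM in RARdn libraries, a difference that did not pass (log2 -0.27, SE 0.181, adjusted p = 0.413). By length that was 279 and 231 CPM per kilobase, against 3.05 and 2.94 for Rbpj. Rbpjl varied far less between RARdn libraries than the summed acinar list did. Kat2b, a histone acetyltransferase of the activator complex, was at 19.1 ± 2.07 and 24.5 ± 3.36 CPM (adjusted p = 0.176).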

How the data were processed

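The authors deposited 1 table of raw read counts per gene symbol for each sample, with 5 closing summary lines. Reads were handled with HISAT2, HTSeq, cutadapt and FastQC, and the builds named are mm10 and GRCm38, per the submitters' processing notes. Those notes also name bedtools and DESeq2. For versions, annotation and strand setting, nothing is given in the sources used here. Reads outside genes took 7.60% to 8.99% of a control library and 2.90% to 5.30% of an RARdn library. Ambiguous reads (5.38% to 5.49% and 4.87% to 4.98%) and reads not aligned (3.26% to 3.41% and 2.33% to 2.54%) were also lower in every RARdn library. So was the number of genes with a count (27828 to 28517 and 23995 to 27147). What part these differences had in the results was not tested. The summary lines were left out. RARdn and control libraries were compared by edgeR 4.0.16, run in R 4.3.3 (filterByExpr, TMM, quasi-likelihood test, 2-sided, genotype as the only term), with Benjamini-Hochberg adjustment over all genes tested. Adjusted p-values come from this fit unless another tool is named. The SE was taken as |log2 fold change| divided by the root of F, and 95% intervals use the fit's degrees of freedom. Alternatives used limma 3.58.1 (voom) and DESeq2 1.42.0. Positions and exon lengths came from GENCODE M21 (GRCm38). The fit was tested on simulated data, in which both groups shared the same dispersion trend and genes of low level were not changed. There it recovered 23.9% of the 1.5-fold changes, 76.1% of the 2-fold changes and 100% of the 4-fold changes, with 3 false calls. Most 1.5-fold changes were thus missed in the simulation. In the real data, chi-square per degree of freedom between libraries of a group was 90.1 to 407 for RARdn and 13.8 to 24.5 for controls. The simulation held no such difference in spread and no difference in sex, so its shares need not hold for these libraries. Members, lists and tests were chosen with earlier results of these data known. Values in every library are given for members called, those with an unadjusted p under 0.05 and the most abundant of each role. Of other pathway genes, those called, the most abundant and the lowest p of each class are named. Names outside this rule were chosen after their values were seen. The ratios of Hey2 to mural markers and of Dtx1 to mural, mesenchymal, neural crest and liver markers were added after seeing the data.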

Additional observations from a re-analysis of the deposited data

How the results depend on the processing

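The number of members called, 1 in the reported fit, was 2 with library sizes and TMM without acinar genes (Dtx1 and Heyl), 3 with no filter beyond 1 count, 3 with DESeq2 and 0 with a term for Xist. Leaving out 1 library gave 0 to 7, where the 7 came without RARdn 3 (6 higher and 1 lower, against 6.98% and 7.84% of all genes) and 0 came without control 2, control 3 or RARdn 2. The number called higher ranged from 0 to 6 and the number called lower from 0 to 1 when 1 library was left out. The 2 other pathway genes called became 0 with at least 1 CPM in 3 libraries and 0 with the Xist term, and ranged from 0 to 6 when 1 library was left out. Over all genes, 767 were called, against 2346 with no filter, 217 with at least 1 CPM in 3 libraries, 1946 with DESeq2, 55 with the Xist term and 100 to 2980 when 1 library was left out. The cause of these changes was not tested. No call of a member or other pathway gene changed sign. With the replicate block, 817 genes were called, and Dtx1 was still the 1 member called. Same-numbered samples share only a number: their deviations from the group means correlated at 0.024, -0.076 and 0.195 across genes, and control 1 correlated best with RARdn 2 (0.202). Groups of 3, libraries of unequal make-up and sexes that were not balanced limit these values.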
